A study of Caenorhabditis elegans with 3 samples.

Results

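The genes described here make up the DNA replication and cell cycle machinery of Caenorhabditis elegans as far as their names show it. They were taken by name: every feature of the deposited tables whose locus name begins with mcm, orc, cdc, cdk, cya, cyb, cyd, cye, pcn, rnr, psf, div, rpa, rfc, cki, cdt or ruvb was a member, which gave 57 of 45343 features. RNA came from whole animals of 3 strains, grown from hypochlorite-treated eggs to the L4 larval stage under standard conditions. They were the wild type N2, strain ZG24 carrying ahr-1(ia03) and strain CZ2485 carrying ahr-1(ju145), where ahr-1 encodes the worm's aryl hydrocarbon receptor, which in mammals is a ligand-regulated transcription factor. The labels do not describe the lesion of either allele, and each allele was represented by 1 strain. With 1 library per strain no value carries a replicate error, no difference between strains was tested, and a difference between libraries cannot be told apart from one between strains.

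Chromosomes are copied once per cell cycle because the steps are separated. In G1 the origin recognition complex, with CDC-6 and CDT-1, loads the ring-shaped MCM helicase onto DNA. In S phase kinases start the helicase, RPA covers the exposed single strands, and the PCNA clamp, placed by the RFC loader, tethers the polymerases. Cyclins and cyclin-dependent kinases drive these transitions, CDK inhibitors hold them back and CDC25 phosphatases release them. In L4 hermaphrodites the germ line is the main proliferating tissue, while vulval, gonadal and seam lineages make their last divisions.

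Values are FPKM, the fragments of a feature scaled by feature length and by library size. This puts genes and libraries on a common scale. It does not remove a shift of a whole library, such as that of ju145 described below. FPKM was above 0 for 18698 features in N2, 18411 in ia03 and 18603 in ju145. Where 3 values of a gene follow each other below, they are FPKM for N2, ia03 and ju145 in that order. The number of fragments behind a value is not known. Among features under an FPKM of 0.3, the most frequent ratio to wild type was 0.810 for ia03 (12 features) and 0.929 for ju145 (26 features), which would correspond to libraries 1.23 and 1.08 times as deep if these features rest on single fragments. ahr-1 itself had an FPKM of 0.664 in N2, 0.699 in ia03 and 0.569 in ju145, too low to check the strain labels.

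All 57 members were detected in all 3 libraries, most of them above the median of the features with an FPKM of at least 1. Their FPKM ran from 1.14 to 209 in wild type, from 2.01 to 195 in ia03 and from 2.38 to 194 in ju145, with medians of 36.1, 35.0 and 30.9. That median was 18.02 in N2, 16.9 in ia03 and 15.1 in ju145, and 42, 43 and 42 members lay above it. Together the members held 0.164% of the summed FPKM of N2, 0.179% of that of ia03 and 0.153% of that of ju145. Members were spread over the genome, with 16 on chromosome I, 13 on II, 13 on III, 7 on IV, 7 on V and 1, cdk-4, on X.

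Some names in the rule do not mark a replication or cell cycle role. The feature named psf-1 in the files (F25B5.7) is nono-1 in RefSeq, an RNA-binding protein gene, whereas RefSeq gives psf-1, a subunit of the GINS complex of the active helicase, to R53.6. The members of other or unclear function also include cdc-37 (a co-chaperone of HSP90), ruvb-1 and ruvb-2 (AAA+ ATPases of chromatin remodelling complexes) and cdk-5 (a neuronal kinase). They include cdk-8 and cdk-9 (kinases of the transcription machinery) as well. The genes cdc-48.3 and rpa-3 were set aside as unclear, which does not show that cdc-48.3 lacks a cell cycle role. Of these, rpa-3, F59A3.5, had no RefSeq entry and the same locus in the files as rpa-4, so reads of that pair cannot be assigned with certainty. With the 10 members of this kind set aside, 47 members remained.

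Each mutant was compared with wild type, as the study's design states. A member counted as measured where the authors' status was OK and FPKM was at least 1 in either library, and a difference of at least 2-fold in FPKM + 1 counted as a difference of size. The authors' status was FAIL in at least 1 table for 8 members. Of these, pcn-1, mcm-7, cdt-2, cdc-37 and cdc-48.1 failed in both tables, mcm-3 and rnr-1 in that of ia03 and cdk-8 in that of ju145. Their FPKM values are given below but they were not counted, which left 50 members for ia03 and 51 for ju145. The loci of 20 members overlap another feature above 0 in the files, and for 10 of these the other feature had the higher FPKM in wild type, so their reads are uncertain.

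**Figure D1:**
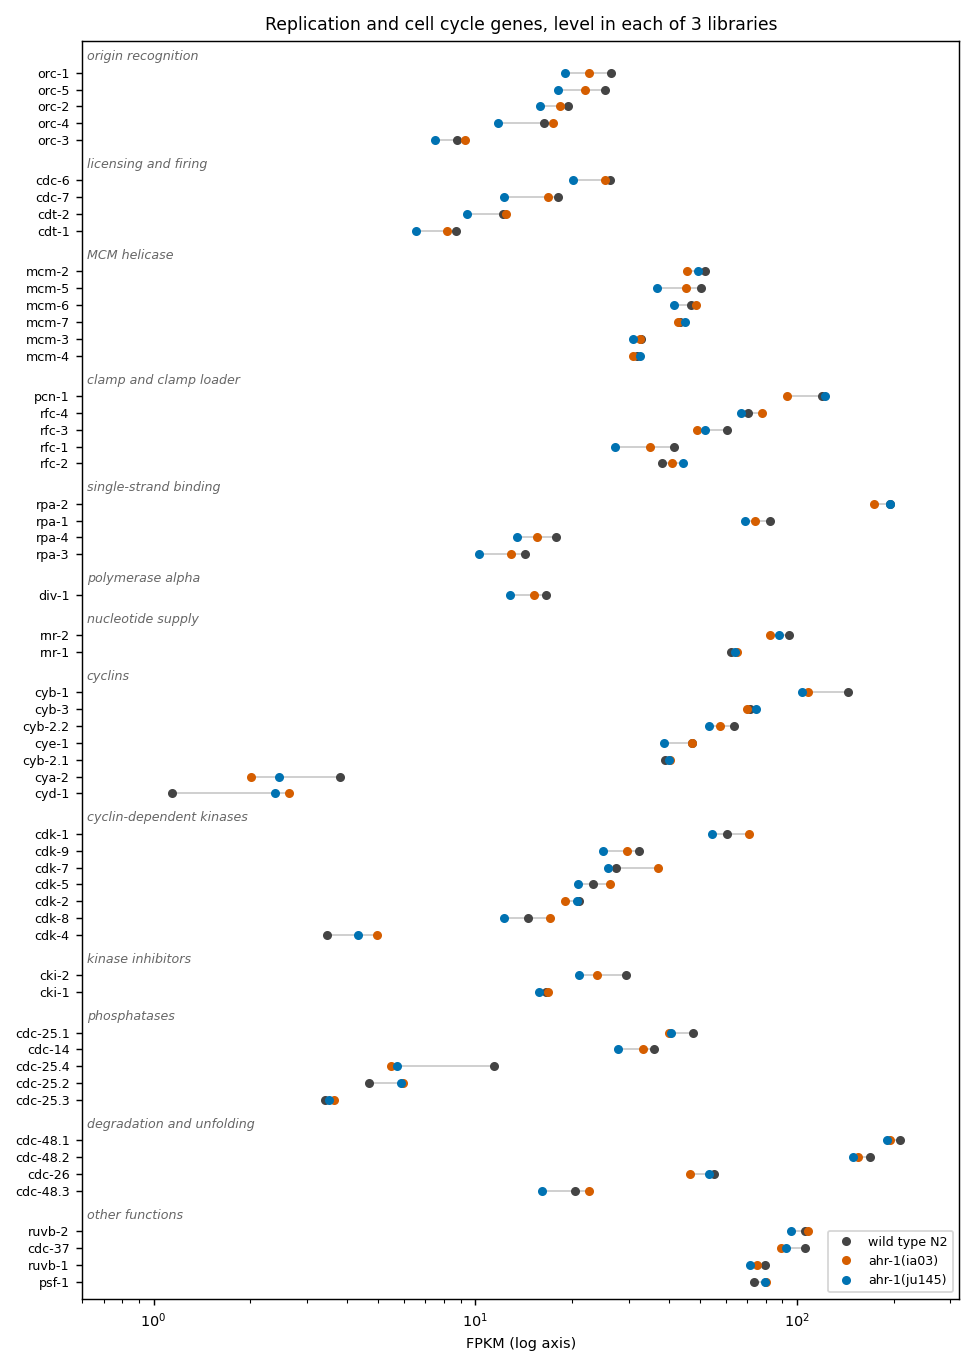
FPKM (log axis) of 56 of the 57 members in wild type, ia03 and ju145, grouped by role and ordered by the wild type level, with 1 point per library and a grey line from the lowest to the highest. Most lines are short, those of cyd-1, cya-2 and cdc-25.4 are the longest, and the wild type point is the lowest for cyd-1 and the highest for cya-2 and cdc-25.4.

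No measured member differed from wild type by 2-fold in FPKM + 1 in either mutant. In ia03, 0 of 50 members were at least 2-fold higher than wild type and 0 were at least 2-fold lower, where 2.52% and 4.26% of all 14783 measured features were. In ju145, 0 of 51 members reached 2-fold upward and 0 downward, against 1.36% and 3.54% of 14686 features. At backgrounds this low a set of this size would hold only a few such genes, so a count of 0 says little by itself. The pseudocount of 1 shrinks the differences of weak genes: as plain ratios of FPKM, cyd-1 was 2.30-fold higher in ia03 and 2.08-fold higher in ju145, and cdc-25.4 was 2.09-fold and 2.001-fold lower.

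A limit of 1.5-fold on FPKM + 1 took in 3 members. In ia03 cyd-1 was higher while cdc-25.4 and cya-2 were lower, where 6.68% of all features were higher and 13.2% lower. In ju145 cyd-1 was higher and cdc-25.4 lower, against 2.94% and 13.8%. The lower members were thus a smaller share than the background in both mutants, 2 of 50 and 1 of 51. For ia03, 41 of 50 members (82.0%) stayed within 1.2-fold of wild type, as did 55.7% of all features. For ju145 the figures were 29 of 51 (56.9%) and 49.8%. The members' median FPKM in N2 was 36.1, beside 18.02 for the features with an FPKM of at least 1. The shares of all features given here were not matched for level. Among the 57 members the highest of the 3 FPKM values was at least 1.5 times the lowest for 4, cyd-1, cdc-25.4, cya-2 and rfc-1, and under 1.2 times for 26.

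The members as a set lay slightly below wild type. Their median log2 ratio in ia03 was -0.08, beside -0.02 for all features, with 18 above wild type and 32 below. In ju145 the median was -0.17 with 10 above and 41 below, beside -0.18 for all features, of which 71.7% were below wild type. Measured from that median, 26 members lay above it and 25 below, so the members followed the shift of the whole ju145 library. After rescaling by the median ratio of all features the median of the members in ju145 was 0.026, and the sign of a small difference in ju145 depends on the scaling for all members described below. Both comparisons use the same wild type library, so a high or low wild type value moves both ratios.

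**Figure D2:**
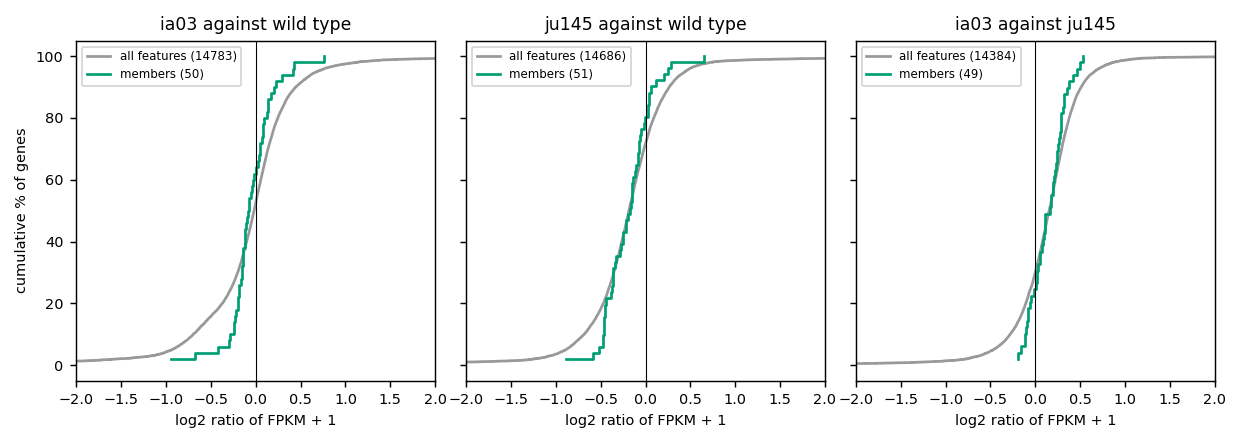
Cumulative share of genes (vertical axis, %) against log2 ratio of FPKM + 1 for ia03 against wild type, ju145 against wild type and ia03 against ju145, with the measured members in green and all measured features in grey. The green curves are steeper than the grey ones for ia03 against wild type and cross 50% close to the grey curve in the other 2 panels.

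The origin recognition complex, which marks the sites where replication can start, had the lowest median ratio of ju145 to wild type among role groups of 5 or more members. The FPKM of orc-1 was 26.5 in N2, 22.5 in ia03 and 18.96 in ju145. That of orc-5 was 25.36, 21.9 and 18.1 in the same order, and that of orc-2 was 19.4, 18.4 and 15.9. These 3 subunit genes kept 1 order, with wild type highest, ia03 between and ju145 lowest. For orc-4, FPKM was 16.4 in N2, 17.4 in ia03 and 11.7 in ju145, and for orc-3 it was 8.76, 9.30 and 7.51. All 5 orc genes were therefore lowest in ju145, with a median log2 ratio to wild type of -0.45, which is 0.27 below the median of all features (relative value -0.27). In ia03 their median was -0.07, with 2 of 5 above wild type. The loci of orc-1 and orc-4 lie 58 nt apart on chromosome III in the coordinates of the files, and reads near their shared boundary cannot be placed with certainty. That of orc-1 also overlaps dhs-11, which was more abundant in N2, at 33.8, so the reads of orc-1 are uncertain.

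The measured factors that load and start the helicase followed the order of orc-1, orc-2 and orc-5. CDC-6, an ATPase that joins ORC at origins, had a transcript level of 26.3 FPKM in N2, 25.38 in ia03 and 20.2 in ju145. CDT-1, which brings MCM to origins, had 8.69, 8.18 and 6.55. The gene of the CDC-7 kinase, which phosphorylates loaded MCM, had 18.1, 16.8 and 12.3, and its log2 ratio of -0.52 in ju145 was the third lowest of all measured members. All 3 were lowest in ju145, as were 35 of the 57 members, and 71.7% of all features were below wild type there. The median log2 ratio of the 3 in ju145 was -0.37, or -0.18 relative to the median of all features. In ia03 the 3 were close to wild type, with log2 ratios of -0.05 to -0.10. The gene of CDT-2, the adaptor through which the CUL-4 ubiquitin ligase removes CDT-1 in S phase, had 12.2, 12.5 and 9.41, without a usable test status.

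The MCM genes, which encode the 6 subunits of the helicase ring, had nearly equal levels in every library. Their FPKM spanned 31.8 to 51.9 in wild type, 31.01 to 48.6 in ia03 and 30.9 to 49.4 in ju145. The highest was thus 1.63, 1.57 and 1.60 times the lowest, whereas among the 5 orc genes, whose products also form 1 complex, the factor was 3.02, 2.42 and 2.53. Between strains, mcm-2 had 51.9 in N2, 45.6 in ia03 and 49.4 in ju145. The FPKM of mcm-4 was 31.8, 31.01 and 32.4, and that of mcm-6 was 46.8, 48.6 and 41.6. The exception was mcm-5, at 50.4, 45.2 and 36.7, with a log2 ratio of -0.45 in ju145. The mcm genes with status FAIL differed as little, with mcm-7 at 43.5, 42.6 and 44.8 and mcm-3 at 32.8, 32.5 and 30.9. Median log2 ratios of the measured mcm genes were -0.10 in ia03 (4 genes) and -0.08 in ju145 (5 genes), the latter 0.10 above the median of all features.

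At the replication fork the most abundant transcripts were those of RPA and PCNA. The FPKM of rpa-2, encoding the middle subunit of RPA, was 194 in N2, 173 in ia03 and 194 in ju145. For rpa-1, the large DNA-binding subunit, it was 82.3, 73.95 and 68.7, and for the related rpa-4 it was 17.9, 15.6 and 13.5. All 4 rpa genes were below wild type in ia03, with log2 ratios of -0.14 to -0.19. Among them rpa-3, at 14.3, 12.9 and 10.2, has the same locus as rpa-4, so this pair does not count as separate genes. The gene of the sliding clamp PCNA, pcn-1, had 119, 93.1 and 122, low in ia03 only, but with status FAIL in both tables.

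The genes of the clamp loader RFC did not share a direction. The large subunit gene rfc-1 (chromosome V, 14642724 to 14645937) had an FPKM of 41.4 in N2, 35.0 in ia03 and 27.3 in ju145. Those of the small subunits were 38.2, 40.9 and 44.1 for rfc-2, 60.6, 48.9 and 51.8 for rfc-3, and 70.7, 77.9 and 67.2 for rfc-4. In ju145 rfc-1 thus had the second lowest log2 ratio of all measured members, -0.58, while rfc-2 had one of 0.20. The ratio of the highest to the lowest rfc gene was 1.85 in N2, 2.23 in ia03 and 2.46 in ju145.

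Polymerase and precursor genes showed small differences. The gene div-1, which encodes a subunit of DNA polymerase alpha, the enzyme that starts each new strand, had an FPKM of 16.6 in N2, 15.2 in ia03 and 12.9 in ju145. Ribonucleotide reductase makes the deoxynucleotides, and its large subunit gene rnr-1 had 62.5, 65.1 and 64.04 while its small subunit gene rnr-2 had 94.8, 82.7 and 87.9. The largest of their log2 ratios to wild type was that of rnr-2 in ia03, at -0.19.

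**Figure D3:**
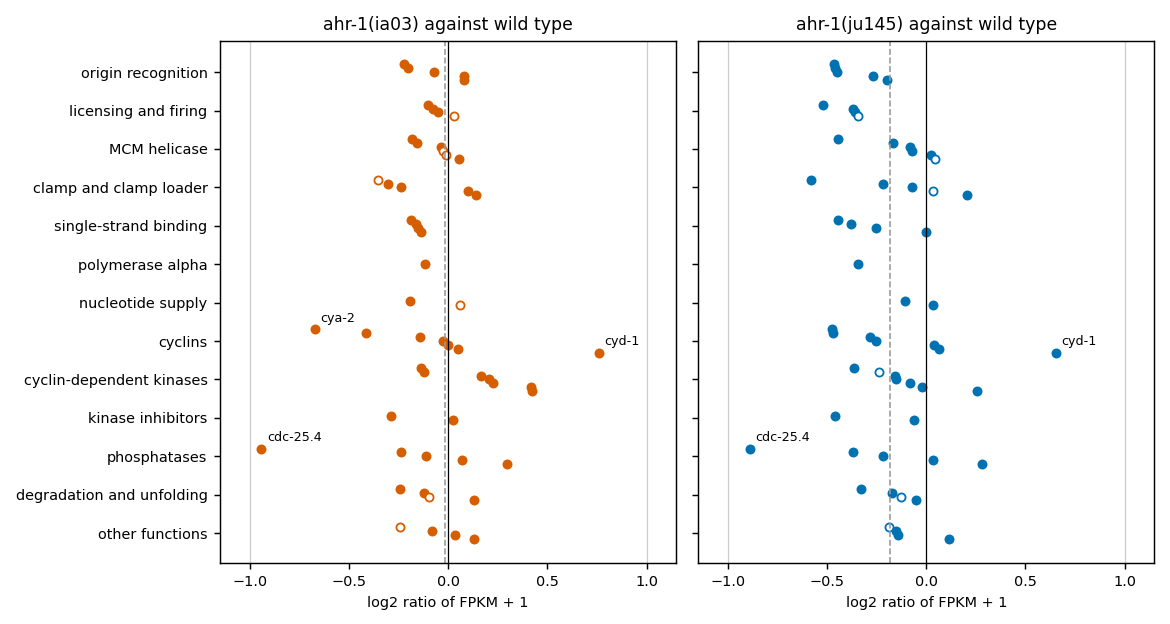
Log2 ratio of FPKM + 1 to wild type for 56 members by role, ia03 on the left and ju145 on the right, with open points for members whose status was FAIL, a dashed line at the median of all measured features and grey lines at 2-fold. Points of ju145 for origin recognition and for licensing and firing lie left of the dashed line at -0.18, and cyd-1 and cdc-25.4 stand apart in both panels.

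Among the cyclins, the D-type gene stood apart. CYD-1, the cyclin D of the worm, acts with the kinase CDK-4 to take cells through G1. Its gene cyd-1 (Y38F1A.5, chromosome II, 12980521 to 12993049; positions are those of the files, and the sources used here name no genome build) had an FPKM of 1.14 in N2, 2.63 in ia03 and 2.38 in ju145. It was the weakest of the 57 members in wild type. The log2 ratios of FPKM + 1 were 0.76 for ia03 and 0.66 for ju145, the highest of any measured member in both. In the authors' deposited tables cyd-1 had a q-value of 0.0517 in ia03 and 0.0348 in ju145. Its kinase gene cdk-4 (F18H3.5, chromosome X, 13515784 to 13518834) had 3.46, 4.97 and 4.32, also above wild type in both mutants, with log2 ratios of 0.42 and 0.25. Neither locus overlaps another feature above 0 in the files.

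Both genes had low FPKM in every library, and most measured epidermal markers were above wild type in the same libraries. Of 11 hypodermis and seam marker genes 9 were measured, and 8 of these were above wild type in ia03 and 6 in ju145. Their medians were 0.32 and 0.13. Of all features 52.5% were below wild type in ia03 and 71.7% in ju145. Their summed FPKM was 376 in N2, 557 in ia03 and 498 in ju145, and none was listed at 0. The nuclear receptor gene nhr-25, which acts in epidermal and vulval cells, had 2.42, 4.25 and 3.88, and the seam GATA factor gene egl-18 had 5.18, 8.09 and 6.86. Other markers of the list stayed closer to wild type. The FPKM of elt-3 was 36.3, 36.4 and 34.9, that of lin-26 was 27.8, 28.6 and 26.4, and that of elt-1 was 7.63, 7.16 and 6.58. The collagen gene dpy-7, whose status was FAIL in both tables, had 54.5, 161 and 111. With the hedgehog-related gene grd-10, at 140.3, 172 and 195, it made up most of the difference in the sum. The part of these cells in the cyd-1 and cdk-4 values was not tested. In whole animals more cells of a type and more RNA per cell cannot be told apart.

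The other cyclin genes were far more abundant or lower in the mutants. The FPKM of cye-1, the gene of cyclin E, which acts at the entry to S phase, was 47.3 in N2, 47.3 in ia03 and 38.6 in ju145. Of the mitotic B-type cyclins, cyb-1 was the highest and differed most, with 144 in N2, 108 in ia03 and 103.8 in ju145, or log2 ratios of -0.42 and -0.47. For cyb-3 FPKM was 71.4, 70.0 and 74.6. For cyb-2.1 it was 39.0, 40.4 and 40.1, and for cyb-2.2 it was 63.9, 57.7 and 53.4. The levels of the B-type genes thus kept the order cyb-1, cyb-3, cyb-2.2, cyb-2.1 in all 3 libraries, while cyb-1 came closer to the rest in both mutants. As cyb-2.1 and cyb-2.2 are similar copies, the split of reads between them is uncertain. The neighbour of cyb-1 on chromosome IV, 690 nt away, is orc-5, which was also below wild type in both mutants. The weak cyclin A gene cya-2 (chromosome II, 2022677 to 2023619) had 3.81, 2.01 and 2.46, with log2 ratios of -0.67 and -0.48, and q-values of 0.292 and 0.330 in the authors' deposited tables.

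Cyclin-dependent kinase genes were on the high side in ia03. Of the 7, 5 were above wild type there, cdk-5 and cdk-8 among them, where 52.5% of all features were below it. The median log2 ratio of the 7 was 0.21, the value of cdk-8, whose locus overlaps the more abundant cle-1, at 29.0 in N2. In ju145 1 of 6 was above wild type, where 71.7% of all features were below it. The median there was -0.12, which is 0.07 above the median of all features. The FPKM of cdk-1, the kinase of mitosis, was 60.8 in N2, 71.2 in ia03 and 54.5 in ju145. That of cdk-7, which activates other kinases and phosphorylates RNA polymerase II, was 27.5, 37.1 and 25.9, and its log2 ratio of 0.42 in ia03 was with that of cdk-4 the highest after cyd-1. The S phase kinase gene cdk-2 had 21.03, 19.002 and 20.7. The kinases outside the cycle had 23.3, 26.2 and 20.8 (cdk-5), 14.6, 17.05 and 12.3 (cdk-8) and 32.3, 29.7 and 24.9 (cdk-9). Only cdk-4 was above wild type in both mutants among these 7 genes.

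The CIP/KIP-type inhibitors, which arrest cells in G1, are encoded by neighbouring genes on chromosome II, 4404 nt apart. The level of cki-1, required for timely cell cycle exit in larval lineages, was 16.6 FPKM in N2, 16.8 in ia03 and 15.8 in ju145. That of cki-2 was 29.4, 23.9 and 21.1. So cki-1 stayed close to wild type (log2 ratios of 0.02 and -0.06), and cki-2 was below wild type in both mutants (log2 ratios of -0.29 and -0.46), with a q-value of 0.219 for ia03 and 0.00369 for ju145 in the authors' deposited tables.

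**Figure D4:**
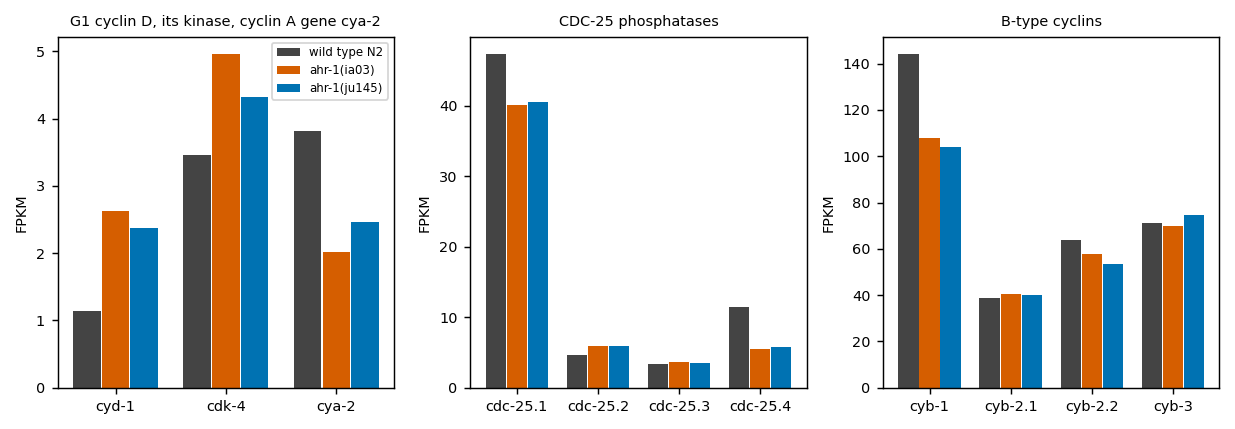
FPKM (linear axis from 0) in wild type, ia03 and ju145 for cyd-1, cdk-4 and cya-2 (left), the cdc-25 genes (centre) and the B-type cyclin genes (right), with 1 bar per library. Wild type is lowest for cyd-1 and cdk-4 and highest for cya-2, cdc-25.1, cdc-25.4, cyb-1 and cyb-2.2.

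Among the phosphatase genes cdc-25.4 stood apart. CDC25 phosphatases remove inhibitory phosphates from cyclin-dependent kinases, and the worm has 4 of them. The gene cdc-25.4 (R05H5.2, chromosome II, 10188250 to 10189346) had an FPKM of 11.5 in N2, 5.49 in ia03 and 5.73 in ju145, close to each other in the mutants. Its log2 ratios of -0.94 and -0.89 were the lowest of any measured member in both comparisons, and its q-values in the authors' deposited tables were 0.0821 for ia03 and 0.0297 for ju145. The most abundant paralog cdc-25.1, which acts in the germ line and embryo, had 47.4, 40.1 and 40.5. The weaker cdc-25.2 and cdc-25.3 had 4.67, 5.95 and 5.88, and 3.42, 3.63 and 3.52. In both mutants, then, cdc-25.1 and cdc-25.4 lay below wild type and cdc-25.2 above it. The level of cdc-25.3 was close to wild type, with log2 ratios of 0.07 and 0.03. In ju145 the log2 ratio of cdc-25.1, -0.22, was near the median of all features, -0.18. The locus of cdc-25.4 overlaps no other feature above 0, that of cdc-25.1 overlaps the more abundant K06A5.2 and that of cdc-25.3 the more abundant trxr-2. The fifth phosphatase gene, cdc-14, which acts with cki-1 to keep precursor cells quiescent, had 36.1, 33.3 and 27.7 and a q-value of 0.000361 in the authors' deposited table for ju145. Its locus in the files also overlaps lys-8, at 152, 138 and 130, so its reads are uncertain.

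Sperm transcripts were lower in the same libraries as cdc-25.4. Of 41 sperm marker genes, 41 were below wild type in ia03 (median log2 ratio -0.75) and 40 in ju145 (median -0.43). Of all features 52.5% and 71.7% were. Relative to the median of all features the medians were -0.73 and -0.24. At least 2-fold lower were 7 markers in ia03 and 0 in ju145, against 4.26% and 3.54% of all features. The summed FPKM of the sperm markers was 30596 in N2, 16668 in ia03 and 22876 in ju145, and none was listed at 0. Most of the list are msp genes, members of 1 gene family. How reads were split among similar copies is not known, so the markers do not count as 41 separate genes. The sum was lower in ia03 than in ju145, as were 35 of the 41 markers, while 6 were higher in ia03. The level of cdc-25.4 was nearly the same in both mutants. Its log2 ratio of ia03 to ju145 was -0.05, beside a median of -0.44 over the sperm markers. The markers spe-9 (4.71, 2.66 and 2.57) and spe-41 (16.4, 9.27 and 9.32), named after their values were seen, were also nearly the same in both mutants. The part of these cells in the cdc-25.4 value was not tested.

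Genes of protein degradation and unfolding held the highest FPKM of the set in N2 and ia03, where rpa-2 was second, and the second highest in ju145, after rpa-2. CDC-48, the AAA+ ATPase that pulls ubiquitinated proteins out of complexes and takes the helicase off replicated DNA, is encoded by cdc-48.1, at 209 in N2, 195 in ia03 and 191 in ju145, and by cdc-48.2, at 169, 155 and 149.7. The similar sequences of both leave the split of reads uncertain. The gene of CDC-26, a small subunit of the anaphase-promoting complex, had 55.2, 46.6 and 53.2. The measured genes cdc-48.2 and cdc-26 were below wild type in both mutants, with log2 ratios between -0.24 and -0.05, and cdc-48.1, with status FAIL in both tables, was not counted. Of the members with other functions, ruvb-2 had 106, 109 and 96.0, and ruvb-1 had 79.5, 75.0 and 71.4. The gene cdc-37 had 106, 89.2 and 92.8, and nono-1, listed as psf-1, had 73.3, 80.4 and 79.5.

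In the authors' deposited tables, which test 2 libraries each, 0 of 50 members with status OK had a q-value under 0.05 for ia03, where 5.38% of all such features had one. For ju145 5 of 51 did, against 8.52%: cdc-14, cki-2, cdc-25.4, cyd-1 and rfc-1. Of these, cyd-1 and cdc-25.4 also met the authors' limit on fold change for ju145, against 3.17% of features, and 0 members met it for ia03, against 3.06%. With 1 library per strain these q-values compare libraries, not genotypes.

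The mutants differed from each other less than 1.5-fold for every measured member. Of 49 members measured in both, 0 were at least 1.5-fold higher in ia03 than in ju145 and 0 at least 1.5-fold lower, where 6.88% and 3.41% of 14384 features were. At 2-fold the counts were again 0 and 0, against 1.28% and 1.38%. The median log2 ratio of ia03 to ju145 was 0.17 over the members and 0.15 over all features, and 37 members were above 0. The highest was 0.53 for orc-4, followed by 0.50 for cdk-7 and 0.46 for cdc-48.3. The lowest was -0.20 for cya-2, then -0.19 for cdc-26.

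Members differed with their level in ju145. With the 57 members split at their median of 32.3 in mean FPKM over the 3 libraries, the 26 measured weaker members had a median log2 ratio to wild type of -0.34 and the 25 stronger ones -0.15. All features split at the same level had medians of -0.21 and -0.14. In ia03 the weaker members had a median of -0.06 and the stronger ones -0.12, beside -0.01 and -0.03 for all features. The weaker members therefore had a lower median in ju145 than all features on the same side of that level, and the stronger ones a similar median.

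Replication and cell cycle genes that the names miss were mostly below wild type, and in ju145 their median lay farther below it than that of the members. A list of 38 such genes, matched by RefSeq symbol and sequence name, gave 37 in the files and 36 measured. Its genes were not sorted by function, and it holds the kinase genes cdk-11.1, cdk-11.2 and cdk-12 beside those of replication. In ia03 11 were above and 25 below wild type (median log2 ratio -0.04), and in ju145 3 were above and 33 below (median -0.31, a relative value of -0.12 from the median of all features, where the members lay 0.010 above it). The difference between this list and the members was not tested. At 2-fold 0 differed in either mutant. Among the largest differences, the topoisomerase gene top-1 had 102 in the wild type library and 60.9 in ju145, with log2 ratios of -0.34 in ia03 and -0.73, and chaf-1, a subunit of the histone chaperone that follows the fork, had 39.4, 33.1 and 24.9. The kinase gene cdk-11.2 had 5.90, 9.51 and 5.17, with a log2 ratio of 0.61 in ia03. The geminin gene gmn-1, whose product holds back CDT-1, had 44.2, 40.9 and 56.7, and was the highest of the list relative to wild type in ju145 (0.35).

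The genes of the GINS complex and the polymerases also differed by less than 2-fold. R53.6, RefSeq's psf-1, had 28.7 in N2, 26.9 in ia03 and 23.2 in ju145. The FPKM of psf-3 was 26.8, 24.8 and 19.6, and that of sld-5 was 13.9, 16.3 and 11.3. All 3 were lowest in ju145, as were 35 of the 57 members. Log2 ratios to wild type of these 3 in ju145 were -0.29, -0.43 and -0.29, beside a median of -0.18 for all features. The remaining GINS gene psf-2 was far weaker, at 1.11, 1.66 and 1.19. The catalytic subunit genes of polymerases alpha, delta and epsilon, pola-1, pold-1 and pole-1, had 30.7, 24.4 and 13.7 in wild type, 27.9, 23.4 and 14.2 in ia03, and 25.5, 19.3 and 12.5 in ju145. The cyclin A gene cya-1, at 22.4, 24.4 and 17.8, was more abundant than its paralog cya-2 in every library.

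Genes of later steps of the cycle were mostly below wild type. Of 46 measured mitosis and checkpoint genes 39 were below it in ia03, where 52.5% of all features were, and 39 in ju145, where 71.7% were. Their median log2 ratios were -0.12 for ia03 and -0.33 for ju145, or -0.11 and -0.15 relative to the median of all features, with 37 and 33 genes below that median. None of them differed by 2-fold in either mutant. The Aurora A kinase gene air-1 had 99.9, 82.7 and 70.5, and the centriole assembly gene sas-6 had 36.1, 30.3 and 22.9. Of 32 measured genes of cell cycle exit and degradation, which include the Rb-related gene lin-35 (22.5, 23.6 and 15.6) and the E2F gene efl-1 (26.5, 22.5 and 18.1), 20 were below wild type in ia03 and 27 in ju145, with medians of -0.06 and -0.25, or -0.04 and -0.07 relative to all features. Of that list, too, 0 genes differed by 2-fold.

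Markers of the germ line, the tissue that holds most of the dividing cells at this stage, were also below wild type, and below the median of all features. Of 30 such genes, 28 of the 29 measured were below wild type in ia03 (median -0.21) and 28 of 30 in ju145 (median -0.31). Relative to all features these medians were -0.19 and -0.12, with 27 and 24 genes below the median of all features, and their summed FPKM was 2149, 1790 and 1856 in wild type, ia03 and ju145. This list and that of exit and degradation both hold gld-1, a regulator of germ cell entry into meiosis, at 311, 223 and 286. Oocyte markers had medians of -0.24 and -0.08 and sums of 2311, 1899 and 2242. Relative to all features their median was -0.22 in ia03 but 0.10 in ju145, where 12 of 15 measured lay above the median of all features, so the direction in ju145 turns with the scaling. None of the germ line or oocyte markers was listed at 0. Muscle, neuron and intestine markers had medians between -0.15 and 0.01. In ju145 all 11 measured muscle markers lay above the median of all features (relative median 0.18), in ia03 3 of 12 did (relative median -0.13). The part of the germ line in the members' small negative ratios was not tested.

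**Figure D5:**
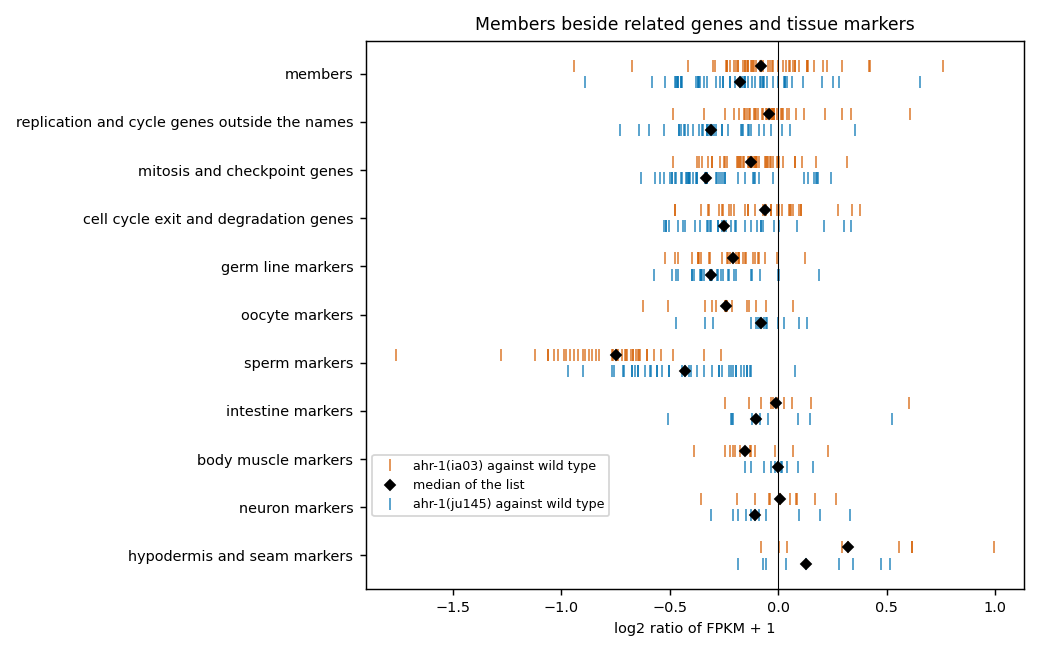
Log2 ratio of FPKM + 1 to wild type (horizontal axis) for the measured members, for 3 lists of related genes and for 7 lists of tissue markers, with 1 tick per gene, ia03 in orange above ju145 in blue, and a black diamond at each median. Sperm markers lie farthest below 0, with medians of -0.75 and -0.43, and most hypodermis and seam markers above it, with medians of 0.32 and 0.13.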

How the data were processed

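RNA from 1 library per strain was sequenced from whole L4 animals. The submitters' processing notes name Cufflinks (1.3.0) and Cuffdiff, TopHat (1.3.1) and Bowtie2 (2.0.2), SAMtools (0.1.16) and FastQC, without saying what each did, and the sources used here name neither genome build nor annotation. The authors deposited FPKM per feature, and with it a status, a p-value and a q-value, per the file headers, in 1 table per mutant, and wild type FPKM was identical in both tables for all 45343 features. No source used here says whether counting used strand, so reads of overlapping genes are uncertain; 20 members overlap another feature above 0.

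Log2 ratios of FPKM + 1 were taken where status was OK and either library reached an FPKM of 1. No test was made. The size limit was 2-fold, and 1.5-fold for naming members. The rule named, by role, the 3 highest members in wild type and those past 1.5-fold in full. The remaining members, the related lists' examples and the genes compared with a named paralog were added after their values were seen. Members, lists and marker lists were chosen with earlier results of these data known. RefSeq symbols matched 55 members, 1 had another symbol and 1 had no entry. Alternatives were other pseudocounts, floors, scalings, statuses, size limits and subsets of members. Python 3.11.15, numpy 2.4.6, pandas 2.3.3 and matplotlib 3.10.9 were used. Values of 1 of the 57 members are not reported here, though the counts include it.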

Additional observations from a re-analysis of the deposited data

How the results depend on the processing

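No paired analysis was possible because each strain has 1 library, and for the same reason no library could be left out. Of 102 values under alternatives, 88 were counts within 1.5 times the one given or medians of the same sign within 0.1 of it on the log2 scale. With a pseudocount of 0.1, 1 member (cyd-1) was at least 2-fold higher and 1 (cdc-25.4) lower in ia03, in place of 0 and 0. With no pseudocount, a choice made after the data were seen, the counts were 1 and 1 in ia03 and 1 and 1 in ju145. At 1.5-fold they were 1 and 2 in ia03 and 1 and 1 in ju145. The median log2 ratio in ju145 changed sign on rescaling, from -0.17 to 0.026 by the median ratio and 0.064 by the upper quartile. That of ia03 to ju145 went from 0.17 to 0.010 and -0.014. Both follow from the shift of all features in ju145. The median in ia03 ran from -0.11 to -0.035. No counting error can be had from FPKM.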
